A study of Mus musculus with 8 samples.

Results

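The transcription factors that direct myeloid development were followed in a mouse acute myeloid leukemia (AML) treated with an inhibitor of pyrimidine synthesis. The set holds 9 genes chosen by name and by no cut on their values, although earlier results of these data were known. They are the C/EBP family members Cebpa, Cebpb, Cebpd, Cebpe and Cebpg, and Spi1 (which encodes PU.1), Irf8, Gfi1 and Klf4. All 9 were found among the 54838 genes of the count table, and 3 of them, Cebpg, Spi1 and Irf8, had enough counts to be tested.

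Leukemic cells on a C57BL/6 background carried the RUNX1-RUNX1T1 fusion and were grown in transplanted Ptprca recipients. There were 2 groups, Vehicle with 4 samples and AG636 with 4 samples. AG636, an inhibitor of the enzyme dihydroorotate dehydrogenase (DHODH), was given by gavage 2 times a day at 100 mg/kg, and the study describes 1 day of treatment for the sequenced cells. Both groups therefore shared the fusion, the transplant and the sort. The labels describe irradiated recipients, whereas the study names preconditioning for its other models and not for this one. Cells were sorted from bone marrow and spleen as cKit high, with CD11b-negative cells named in a figure legend, and the tissue of each sample was not given. A figure legend gives fewer mice per group than there are samples here. If samples share a mouse, the p-values measure in part a technical spread. Mouse ages were not given in the sources used here.

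Myeloid fate is set by a small network of DNA-binding proteins. PU.1 and C/EBP alpha open the chromatin of myeloid genes. C/EBP epsilon and Gfi1 then drive granulocyte maturation, while Irf8 and Klf4 favor monocytes and dendritic cells. C/EBP beta and C/EBP delta act in emergency granulopoiesis and inflammation, and C/EBP gamma, which lacks a classical activation domain, pairs with other family members and with ATF4. The RUNX1-RUNX1T1 fusion is known to repress CEBPA and to interfere with PU.1 in human leukemia.

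RefSeq promoter windows of the GRCm38.p6 build, 250 bases before to 50 bases after a gene start, were matched for 6 of the 9 genes. Cebpd, Cebpe and Spi1 had no entry there. Windows of 3 genes are shown 5′ to 3′ on the strand of the gene: Cebpg and Cebpa, the most and the least abundant members, which lie 62.7 kb apart on chromosome 7, and Irf8, the member with the largest measured difference among those tested. Capitals mark the TATA motif TATAAA.
Cebpg, chr7:35056517-35056816, minus strand: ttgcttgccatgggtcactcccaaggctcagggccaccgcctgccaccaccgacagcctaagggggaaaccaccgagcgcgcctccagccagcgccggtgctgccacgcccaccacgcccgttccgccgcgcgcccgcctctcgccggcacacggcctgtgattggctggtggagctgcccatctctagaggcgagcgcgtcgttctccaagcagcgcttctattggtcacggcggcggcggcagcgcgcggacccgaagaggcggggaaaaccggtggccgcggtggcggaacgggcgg
Cebpa, chr7:35119043-35119342, plus strand: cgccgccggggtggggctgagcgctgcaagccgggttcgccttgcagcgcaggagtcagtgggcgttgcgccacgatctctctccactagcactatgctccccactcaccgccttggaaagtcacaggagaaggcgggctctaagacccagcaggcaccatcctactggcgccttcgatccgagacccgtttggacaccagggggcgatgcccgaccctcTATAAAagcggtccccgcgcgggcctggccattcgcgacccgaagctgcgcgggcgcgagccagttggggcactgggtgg
Irf8, chr8:120736108-120736407, plus strand: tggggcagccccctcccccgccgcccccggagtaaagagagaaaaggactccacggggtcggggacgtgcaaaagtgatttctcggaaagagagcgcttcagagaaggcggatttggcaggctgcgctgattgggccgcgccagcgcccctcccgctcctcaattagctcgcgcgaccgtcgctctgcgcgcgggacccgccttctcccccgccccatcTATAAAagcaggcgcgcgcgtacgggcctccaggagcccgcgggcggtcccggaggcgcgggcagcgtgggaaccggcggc
The motif TATAAA began 30 bases before the start of Cebpa and 31 bases before the start of Irf8, and this motif was absent from the Cebpg window. It was present on either strand in 13.6% of the 32851 windows in the table. The letters searched for C/EBP (TTGCNNAA, in 10.8% of all windows), PU.1 (GAGGAA, 28.3%), RUNX (TGTGGT, 16.8%), Gfi1 (2.82%) and a composite Ets-IRF site (2.72%) had no match in these 3 windows on either strand. Among the other matched genes, the C/EBP letters occurred once, 143 bases before a start of Gfi1, and TATAAA once, 22 bases after the start of Cebpb. GC content was 71.7% for Cebpg and 67.3% for Cebpa, against a median of 52.7% over all windows. The Cebpg window held 38 CpG dinucleotides, the Cebpa window 29 and the Irf8 window 38, against a median of 7.

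Libraries held 6586446 to 7162036 counts in Vehicle and 6120030 to 6610360 counts in AG636 (exact permutation p = 0.0571, two-sided; the smallest p that 4 against 4 allows is 0.0286). Vehicle sample 4 and AG636 sample 3 stood apart from the rest of their groups in a scaling plot of all genes, and results are given without them where they matter. The labelled cell type was checked against marker genes. Some progenitor genes were present and others were low. Kit, the receptor used for the sort, was at 152.6 to 252.1 CPM (counts relative to a library size that TMM factors had scaled). Myb was at 388.1 to 717.2 CPM and Runx1t1, the fusion partner gene, at 10.7 to 23.3 CPM. These ranges cover all samples. Flt3 did not exceed 0.798 CPM, Cd48 3.99 CPM, Ptprc 9.25 CPM and Cd34 35.6 CPM in any library. Several defining myeloid genes were near 0 and others were not. Itgam did not exceed 0.615 CPM and Csf3r did not exceed 0.728 CPM in any library. Itgam encodes CD11b, and CD11b-negative cells are named in a figure legend of the study. Mpo, the myeloperoxidase gene, reached 4.77 CPM, Lyz2 13.6 CPM, S100a8 76.0 CPM and Fcgr3, an Fc receptor gene, 97.3 CPM. Genes of other lineages were abundant, with the erythroid factor Klf1 at 112.2 to 239.3 CPM and the mast cell and basophil receptor gene Ms4a2 at 540.3 to 1074 CPM. In bulk RNA, fewer cells of a type and less RNA per cell cannot be told apart.

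In GRCm38 the 9 genes lie on 7 chromosomes. Cebpg spans chr7:35046422-35056573 on the minus strand and Cebpa chr7:35119293-35121928 on the plus strand, with 4 genes of the table between them. Spi1 spans chr2:91082390-91115756, Irf8 chr8:120736358-120756694 and Cebpb chr2:167688915-167690418, all on the plus strand. Cebpd spans chr16:15887286-15891031 on the plus strand, and Cebpe chr14:54710360-54712174, Gfi1 chr5:107716657-107726036 and Klf4 chr4:55527143-55532466 lie on the minus strand.

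Expression of the 9 factors spanned a wide range, and Cebpg and Spi1 held most of the counts. QuantSeq reads the 3′ end of a transcript, so counts compare transcript numbers between genes without a length correction. By mean level over 8 samples the order was Cebpg (79.9 CPM), Spi1 (41.8 CPM), Irf8 (3.36 CPM), Gfi1 (0.905 CPM), Cebpb (0.649 CPM), Klf4 (0.439 CPM), Cebpd (0.325 CPM), Cebpe (0.138 CPM) and Cebpa (0.0380 CPM). Cebpg ranked 2608th and Spi1 4539th among all genes in the table, whereas Irf8 ranked 9834th. Cebpg exceeded Spi1, Spi1 exceeded Irf8 and Irf8 exceeded Gfi1 in 8 of 8 samples, and the sample ranges of Irf8 and Gfi1 overlapped between libraries. From Gfi1 down to Cebpe, each gene exceeded the next in 5 of 8 samples, so the order of these neighbors did not stand above their spread, and Cebpe exceeded Cebpa in 2 of 8 samples. The 6 lowest factors together had 130 of the 52471833 counts of the series.

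**Figure D1:**
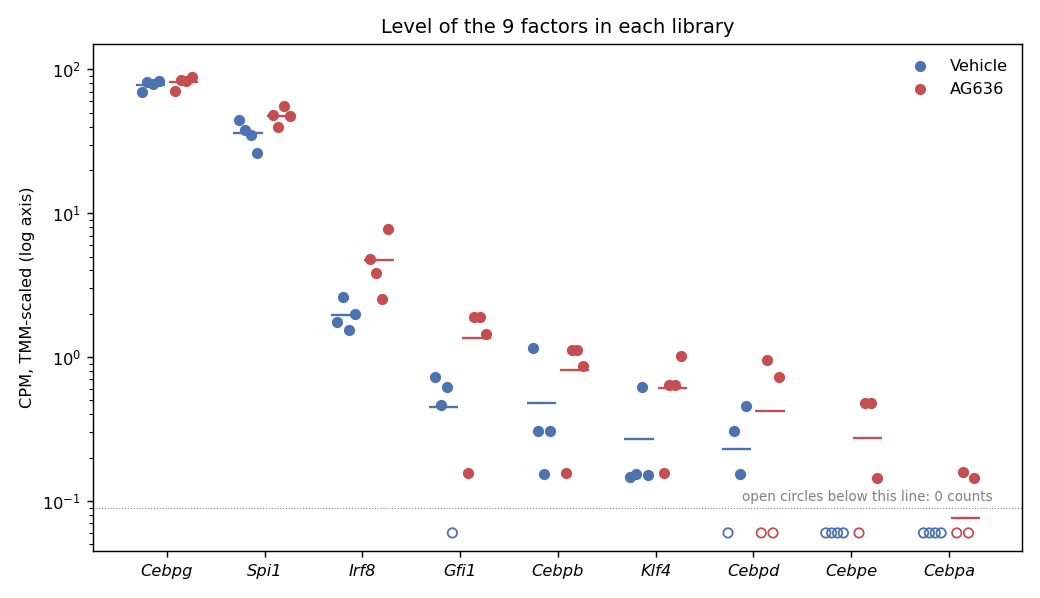
TMM-scaled CPM (log axis) of the 9 factors, ordered by mean level, in 4 Vehicle (blue) and 4 AG636 (red) libraries, with group means as lines and libraries with 0 counts as open circles set below the dotted line. Cebpg and Spi1 sit between 26.0 and 88.3 CPM in every library, and Cebpa and Cebpe are at 0 in all 4 Vehicle libraries.

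By limma-voom, none of the 3 factors tested passed the threshold between AG636 and Vehicle, and Irf8 passed by the other 2 tools. Over all 10911 tested genes, limma-voom called 14.0% (5.47% higher and 8.49% lower in AG636) at a Benjamini-Hochberg adjusted p under 0.05, and it called 0 of the 3 factors tested. At an unadjusted p under 0.05 there were 2 of the 3, Spi1 and Irf8, against 30.7% of all tested genes. edgeR's quasi-likelihood test called 1 factor, Irf8, higher where it called 6.36% of all genes higher, and DESeq2 called the same factor where it called 9.03% higher.

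Cebpg, the dimer partner of the other C/EBP proteins, was the main C/EBP transcript in every library. Its level was 69.6, 81.5, 78.9 and 82.6 CPM in Vehicle samples 1 to 4. In AG636 samples 1 to 4 it was 70.4, 84.6, 83.5 and 88.3 CPM. The groups overlapped, with sample 1 the lowest in each. The means were 78.2 ± 5.88 and 81.7 ± 7.79 CPM (SD, n = 4 each), a log2 fold change of 0.06 (SE 0.10, 95% interval -0.15 to 0.28, limma-voom adjusted p = 0.708). On the linear scale this interval ran from 0.898 to 1.21. The SD of Cebpg on the log2 scale was 0.11 in Vehicle and 0.14 in AG636, below the medians over tested genes of 0.16 and 0.23.

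Cebpg made up 99.1 ± 0.528% of all counts of the 5 C/EBP genes in Vehicle and 98.2 ± 1.20% in AG636 (SD, n = 4 each). Over all 8 libraries this share ran from 96.9% (exact 95% binomial interval 95.1 to 98.2%, counting error only) in AG636 sample 2 to 99.8% (98.8 to 100.0%) in AG636 sample 1. The other 4 C/EBP genes had 19 counts in Vehicle and 41 counts in AG636. Both extremes of the share thus lay within AG636. Gm44836, a gene on the same strand inside Cebpg, had 116 counts in all, against 4178 for Cebpg.

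Cebpa, the factor needed for granulocyte commitment, was close to undetected. It had 0 counts in all 4 Vehicle libraries, which allows up to 0.114 CPM over the group, and 0, 1, 0 and 1 count in AG636 samples 1 to 4. No fold is given for Cebpa, because both groups were at or under the floor of 3 counts, and in the fit without a filter it did not pass (limma-voom adjusted p = 0.460). A difference in Cebpa was not detectable at this depth. Cebpg, its neighbor on the chromosome, had 4178 counts in the same libraries.

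Cebpe, which drives the late granule program, also had 0 counts in all 4 Vehicle libraries. In AG636 samples 1 to 4 it had 0, 3, 3 and 1 counts. The pooled AG636 level of 0.271 CPM (exact 95% Poisson interval 0.109 to 0.557, counting error only) was at least 2.38-fold higher than the Vehicle floor of 3 counts over the group, when the 7 counts are taken without their error. The lower end of their interval lay below that floor of 0.114 CPM. In a fit without a filter on low counts, Cebpe had the smallest p of the 6 low factors and did not pass (limma-voom adjusted p = 0.119), where 5.13% of 23416 genes were called. edgeR without a filter called 7.63% of genes and 0 of these 6 factors.

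Cebpb and Cebpd, the inflammatory C/EBP genes, were detected at a few counts per library. Cebpb had 8, 2, 1 and 2 counts in Vehicle and 1, 7, 7 and 6 counts in AG636. Its highest library was thus Vehicle sample 1 and the groups overlapped. Cebpd had 0, 2, 1 and 3 counts in Vehicle and 0, 6, 0 and 5 counts in AG636, with 0 in libraries of both groups. Whether counting used strand was not stated. In the GENCODE M21 annotation, exons of Spidr, a gene on the opposite strand with 1247 counts, cover 562 of the 3746 exon bases of Cebpd, and exons of Tmem189, likewise opposite and with 1240 counts, cover 312 of the 1504 exon bases of Cebpb. Neither reaches the last 500 exon bases, and the counts of Cebpb and Cebpd are uncertain to that extent.

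Spi1 was the second factor expressed at a substantial level. PU.1, its product, is needed for both granulocytes and monocytes. Vehicle samples 1 to 4 had 44.6, 38.0, 35.1 and 26.0 CPM. AG636 samples 1 to 4 had 47.9, 39.4, 55.7 and 47.4 CPM. In AG636, 3 of 4 samples were above the highest Vehicle sample and the groups overlapped through AG636 sample 2. The means were 35.9 ± 7.70 and 47.6 ± 6.64 CPM (SD, n = 4 each), a log2 fold change of 0.42 (SE 0.16, 95% interval 0.06 to 0.78), which did not pass (limma-voom adjusted p = 0.109). The lowest and the highest Spi1 level fell in the libraries that stood apart, Vehicle sample 4 and AG636 sample 3. Without these 2 libraries the log2 fold change of Spi1 was 0.22 (adjusted p = 0.299), and without Vehicle sample 4 alone it was 0.29.

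Irf8, which directs monocyte and dendritic cell fate, had a low level and the largest measured difference of the 3 tested factors. It had 12, 17, 10 and 13 counts in Vehicle samples 1 to 4, or 1.75, 2.61, 1.55 and 1.98 CPM. In AG636 samples 1 to 4 there were 31, 24, 16 and 54 counts, or 4.82, 3.83, 2.55 and 7.80 CPM. AG636 sample 3 lay just below the highest Vehicle sample, and the other 3 AG636 samples lay above it. The mean was 1.97 ± 0.462 CPM in Vehicle and 4.75 ± 2.24 CPM in AG636 (SD, n = 4 each), a 2.25-fold difference (95% interval 1.25 to 4.05) or a log2 fold change of 1.17 (SE 0.39). Irf8 lies within an intron of Gm20388 on the same strand, which had 0 counts and shares 0 exon bases with it.

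The call for Irf8 depended on the test. It missed the threshold by limma-voom (adjusted p = 0.0663) and passed it by edgeR's quasi-likelihood test (adjusted p = 0.0409) and by DESeq2 (adjusted p = 0.0187). Direction was the same in 18 of 18 alternative fits, with log2 fold changes from 0.90 to 1.45 and adjusted p-values from 0.0187 to 0.175, and 7 of the 18 passed. Single libraries shaped the value for Irf8. Without AG636 sample 3 it was 1.42 (adjusted p = 0.0215), without both libraries that stood apart 1.45 (adjusted p = 0.0369), and without AG636 sample 4 0.90 (adjusted p = 0.103).

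**Figure D2:**
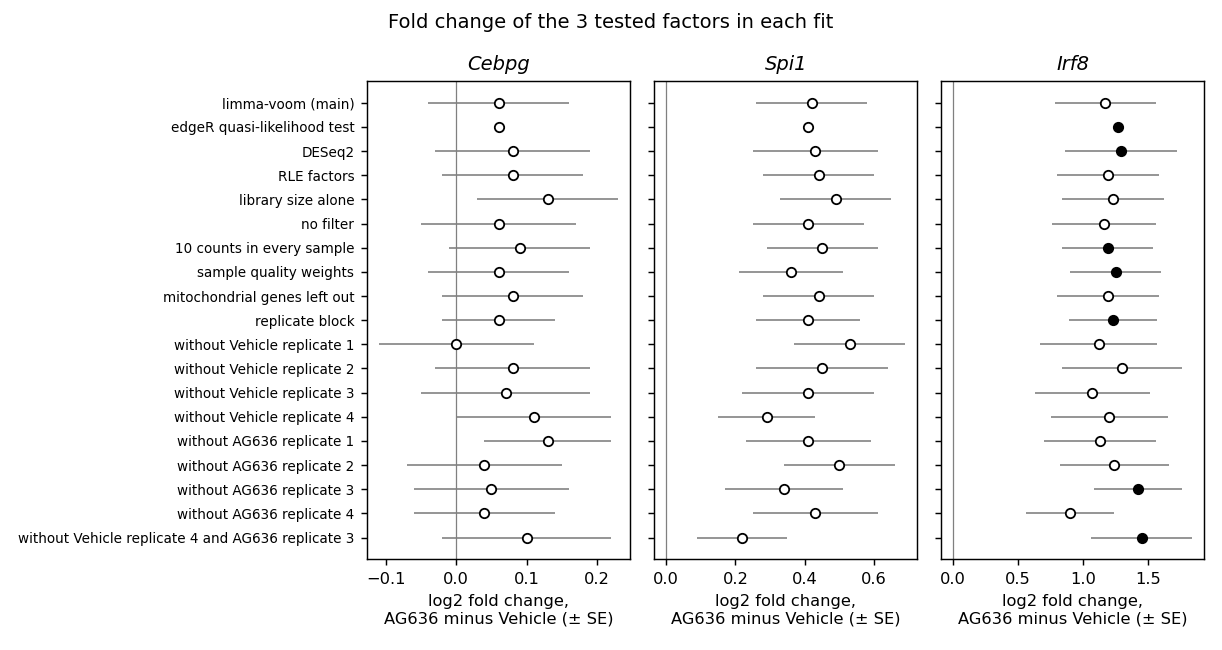
Log2 fold change (AG636 minus Vehicle) of Cebpg, Spi1 and Irf8 in the main fit and 18 alternatives, with bars for the SE (edgeR gives none) and filled points where the adjusted p is under 0.05; the 3 horizontal scales differ. Irf8 is between 0.90 and 1.45 and filled in 7 alternatives, Spi1 is between 0.22 and 0.53 and Cebpg between 0 and 0.13 with no filled point.

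Set against Spi1 within each library, Irf8 had 3.92, 6.88, 4.41 and 7.60 counts per 100 Spi1 counts in Vehicle samples 1 to 4. In AG636 the ratios were 10.1, 9.72, 4.59 and 16.5. This ratio does not depend on library scaling, and AG636 sample 3 again fell within the Vehicle range while the other 3 lay above it. The mean ratio was 5.70 ± 1.81 in Vehicle and 10.2 ± 4.87 in AG636 (SD, n = 4 each).

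Some genes of antigen-presenting and B cells, picked after their values were seen, were also highest in the library with the most Irf8. H2-Aa and H2-Ab1, which encode class II chains, Cd74, which encodes their chaperone, and Cd79a, part of the B cell receptor, each peaked in AG636 sample 4, as Irf8 did. H2-Aa stood at 19.9, 17.1, 8.14 and 30.6 CPM in AG636 samples 1 to 4, the same rank order as Irf8. H2-Ab1 (9.49, 7.34, 9.26 and 18.2 CPM), Cd74 and Cd79a did not follow that order below sample 4. In Vehicle, Irf8 was highest in sample 2 (2.61 CPM), where H2-Ab1 was at its lowest (4.15 CPM). H2-Aa, H2-Ab1, Cd74 and Cd79a were each highest in Vehicle sample 4. Cd74 ranged from 2.01 to 6.69 CPM in Vehicle and from 5.75 to 18.6 CPM in AG636 (1.28 on the log2 scale, limma-voom adjusted p = 0.0756). Cd79a ranged from 0.291 to 1.06 CPM in Vehicle and from 1.60 to 3.18 CPM in AG636 (1.83 on the log2 scale, limma-voom adjusted p = 0.0266). With at most 7 counts in a Vehicle library, Cd79a passed the filter (minimum count 10) only through AG636. Its call is therefore not independent of its direction. The 9 B cell markers summed to 6.61 to 15.1 CPM in Vehicle and 12.0 to 25.3 CPM in AG636. A higher mean in AG636 was found for 9 of 9. Of the 5 tested 1 was called, Cd79a, where 5.47% of all tested genes were called higher. Every other marker list also had most of its genes higher by mean in AG636. These ran from 5 of 8 for megakaryocytes to 7 of 7 for mast cells or basophils and for leukemic progenitors. AG636 sample 4 was the highest library for 7 of these 9, and the exceptions were Pax5, highest in AG636 sample 2, and Igll1. For the 11 dendritic cell markers, which include H2-Aa and H2-Ab1, the sums were 21.4 to 27.2 CPM and 23.9 to 59.3 CPM. Without those 2 genes the other 9 summed to 6.39 to 12.4 CPM in Vehicle and 6.54 to 10.4 CPM in AG636, with the defining genes Cd209a at 0 in every library and Xcr1 at 0 in all Vehicle libraries. The 12 monocyte or macrophage markers summed to 16.9 to 22.6 CPM and 21.6 to 30.8 CPM, highest in AG636 sample 1. The 9 T or NK cell markers summed to 4.66 to 8.05 CPM and 7.98 to 15.5 CPM, highest in AG636 sample 4. The part of these cell types in the Irf8 difference was not tested.

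**Figure D3:**
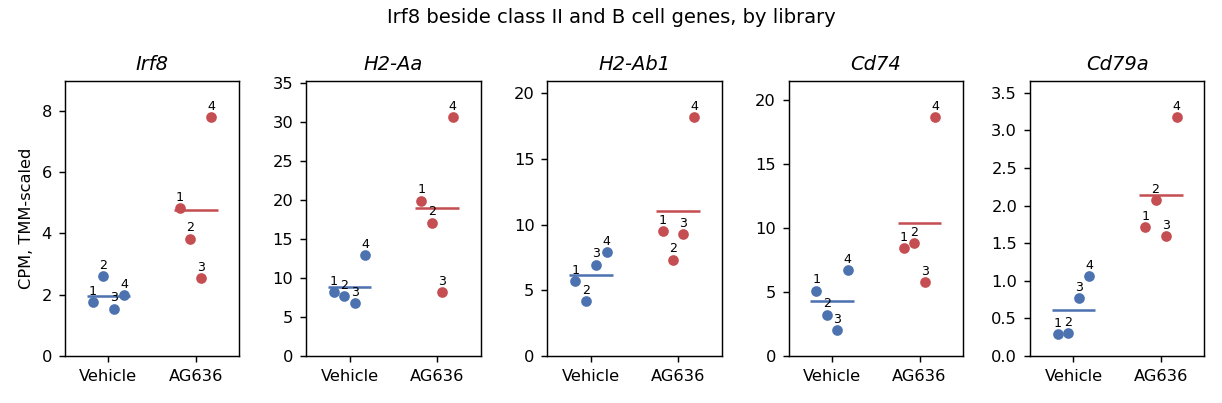
TMM-scaled CPM (linear axes from 0, 1 scale per gene) of Irf8, H2-Aa, H2-Ab1, Cd74 and Cd79a in 4 Vehicle (blue) and 4 AG636 (red) libraries, each point numbered by its sample and the line giving the group mean. AG636 sample 4 is the highest library for each of the 5 genes, at 7.80 CPM for Irf8 and 30.6 CPM for H2-Aa.

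Gfi1, a repressor needed for granulocytes, had 5, 3, 4 and 0 counts in Vehicle and 1, 12, 12 and 10 counts in AG636. AG636 samples 2, 3 and 4 were above all Vehicle samples, and AG636 sample 1 was below 3 of them. Its group means were 0.452 ± 0.321 and 1.36 ± 0.832 CPM (SD, n = 4 each), and in the fit without a filter Gfi1 did not pass (log2 fold change 1.48, limma-voom adjusted p = 0.428). Without both libraries that stood apart, the value for Gfi1 was 0.69 (adjusted p = 0.699). Gfi1b, the paralog that acts in red cell and platelet precursors, had 6305 counts over the 8 libraries against 47 for Gfi1. Gfi1b ran from 80.2 to 112.2 CPM in Vehicle and from 98.9 to 222.8 CPM in AG636 and did not pass (log2 fold change 0.57, adjusted p = 0.0951).

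Klf4, a monocyte factor under the control of PU.1, had 1, 1, 4 and 1 counts in Vehicle and 1, 4, 4 and 7 counts in AG636. The groups overlapped, and without a filter Klf4 had a log2 fold change of 1.01 (limma-voom adjusted p = 0.518).

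Summed, the 6 low factors had 14, 8, 10 and 6 counts in Vehicle samples 1 to 4. They had 3, 33, 26 and 30 counts in AG636 samples 1 to 4. AG636 sample 1 was therefore the lowest of all 8 libraries and the other 3 AG636 libraries were the highest. Each of the 6 had more counts in AG636 than in Vehicle and none passed without a filter by limma-voom or edgeR. DESeq2 gave an adjusted p for only 2 of them, Cebpb (0.660) and Gfi1 (0.227). The 12 neutrophil markers summed to 104.7, 108.8, 46.1 and 81.8 CPM in Vehicle samples 1 to 4 and to 16.6, 176.2, 24.1 and 215.5 CPM in AG636 samples 1 to 4. S100a8, which encodes a neutrophil calcium-binding protein, was at 6.84, 69.8, 5.90 and 76.0 CPM in AG636. Both sums were low in AG636 sample 1 and high in AG636 samples 2 and 4, whereas AG636 sample 3 was high for the factors and low for the markers. Of the 12 markers, 11 had a higher mean CPM in AG636, while the fitted log2 fold change was negative for 5 of the 6 tested and 0 were called. The part of neutrophils in these counts was not tested.

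Genes that bind or control these factors were expressed, in contrast to most of the factors. Of 29 partners and regulators of C/EBP and PU.1, 25 were tested and limma-voom called 0, with 5 at an unadjusted p under 0.05, against 14.0% and 30.7% of all tested genes. edgeR called 0 and DESeq2 called 1, and limma-voom called 1 without AG636 sample 3 and 3 without AG636 sample 4. The median log2 fold change was 0.09, against -0.01 over all tested genes. The smallest p belonged to Atf4, the stress-response factor that pairs with C/EBP gamma. Atf4 was at 171.8, 170.3, 195.9 and 256.2 CPM in Vehicle and 122.7, 145.9, 136.3 and 177.6 CPM in AG636, or -0.44 on the log2 scale (SE 0.15, limma-voom adjusted p = 0.0716), and its groups overlapped through AG636 sample 4. Crebbp, a coactivator, came next with means of 181.9 ± 7.47 and 207.0 ± 13.6 CPM (0.18 on the log2 scale, adjusted p = 0.140). Runx1, whose symbol the fusion shares, differed by -0.03 on the log2 scale (adjusted p = 0.937).

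Among 34 other regulators of granulocytes, monocytes and dendritic cells, 20 were tested and 3 rose in AG636 while 0 fell. Over all tested genes limma-voom called 5.47% higher and 8.49% lower, or 14.0% in either direction. At an unadjusted p under 0.05 there were 10 of the 20, against 30.7% of all tested genes. Their median log2 fold change was 0.25. Irf2, an interferon regulatory factor of the same family as Irf8, rose from 75.5 ± 4.995 to 117.0 ± 14.8 CPM, by 0.62 on the log2 scale (SE 0.10, limma-voom adjusted p = 0.00481). Zeb2, a repressor that acts in dendritic cell and monocyte development, rose from 56.0 ± 2.96 to 79.7 ± 12.8 CPM, by 0.50 on the log2 scale (adjusted p = 0.0181). Klf13 rose from 123.8 ± 10.4 to 172.8 ± 24.4 CPM, by 0.47 on the log2 scale (adjusted p = 0.0199). In all 3 genes the lowest AG636 sample was above the highest Vehicle sample, as in 9.35% of tested genes. The count of called genes in this list was 1 without Vehicle sample 3, 5 without AG636 sample 2 and 6 without AG636 sample 3, and 2 without Vehicle sample 1 or 2, and it was 7 without both libraries that stood apart.

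Targets of the factors showed few calls. Of 17 growth factor and cytokine receptors, 10 were tested, 0 were called by limma-voom and 4 had an unadjusted p under 0.05 (14.0% and 30.7% of all tested genes), with a median log2 fold change of 0.33. edgeR and DESeq2 called 0 receptors, and limma-voom called 1 without AG636 sample 4. The receptors with the smallest p were Ifngr1, the interferon gamma receptor (7.78 ± 1.05 to 11.1 ± 1.42 CPM, a log2 difference of 0.51, adjusted p = 0.0752), and Kit (163.1 ± 9.62 to 205.6 ± 41.0 CPM, a log2 difference of 0.31, adjusted p = 0.142). Kit was used to sort the cells. Of 24 granule protein genes, which C/EBP factors activate, 15 were tested, 0 were called and 1 had an unadjusted p under 0.05, against the same shares, with a median of -0.29. edgeR and DESeq2 called 0 granule genes, and limma-voom called 1 without AG636 sample 2. Srgn, which encodes the granule proteoglycan serglycin, measured 2103 ± 179.7 CPM in Vehicle and 1698 ± 288.6 CPM in AG636 (-0.32 on the log2 scale, adjusted p = 0.121). Serpinb1a, an inhibitor of granule proteases, ran from 12.5 to 32.5 CPM in Vehicle and from 16.4 to 174.1 CPM in AG636 (1.25 on the log2 scale, adjusted p = 0.224).

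Of 35 targets of PU.1 and Irf8 in monocytes, 19 were tested, 1 rose and 0 fell, with 4 at an unadjusted p under 0.05 and a median log2 fold change of 0.19. Over all tested genes 5.47% were called higher and 30.7% had an unadjusted p under 0.05, so these counts were near or below the background. The gene was Fcer1g, the shared signaling chain of Fc receptors. It had 7, 2, 8 and 8 counts in Vehicle and 22, 12, 12 and 24 counts in AG636 (log2 fold change 1.53, SE 0.45, limma-voom adjusted p = 0.0465). With at most 8 counts in a Vehicle library, Fcer1g passed the filter on low counts only through AG636. A gene that passes in this way cannot overlap between the groups. The separation and the call of Fcer1g are therefore not independent of its direction. Without a filter on low counts 0 of this list were called. Leaving out any 1 library except AG636 sample 3 also left 0 called, and leaving out AG636 sample 3 gave 3. Fcer1g is also expressed in mast cells and basophils, whose 7 markers summed to 823.4 to 1037 CPM in Vehicle and 621.2 to 1408 CPM in AG636. Most of each sum was Ms4a2 alone, at 780.6 to 929.5 CPM in Vehicle and 540.3 to 1074 CPM in AG636. Cpa3 ran from 34.4 to 284.7 CPM over both groups. Mcpt8, Prss34, Mcpt4, Fcer1a and Tpsb2 did not exceed 18.2 CPM in any library.

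**Figure D4:**
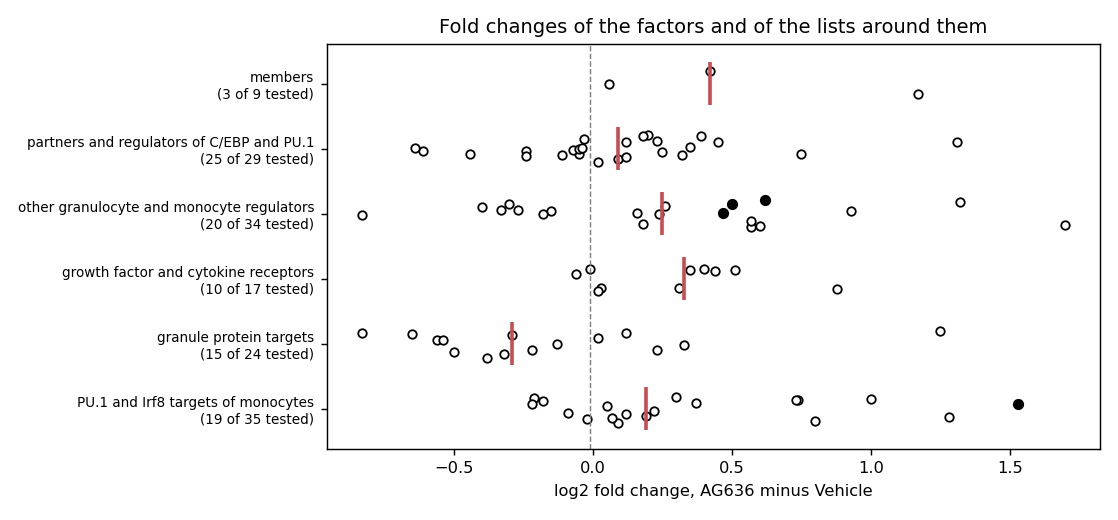
Log2 fold change (AG636 minus Vehicle) of every tested gene among the factors and 5 surrounding lists, with filled points for genes called by limma-voom, red bars for list medians and a dashed line at the median of all tested genes. Filled points are Irf2, Zeb2 and Klf13 among the other regulators and Fcer1g among the PU.1 and Irf8 targets, all to the right of 0.

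Across the 8 libraries, with group means taken out, the gene most like Cebpg was Pqlc1 (Pearson r = 0.95) and the gene most like Irf8 was Api5 (r = 0.98). These are the highest of about 5260 correlations each over 8 points that share libraries and depth, and they are given as a description. Among the factors, r was -0.45 for Cebpg with Spi1, 0.19 for Cebpg with Irf8 and -0.16 for Spi1 with Irf8.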

How the data were processed

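RNA of sorted RUNX1-RUNX1T1 AML cells was counted in 4 Vehicle and 4 AG636 samples, grouped by title. The authors deposited unnormalized read counts for each gene. The submitters' processing notes name cutadapt 1.9.1 for trimming, HISAT2 2.0.4 for mapping to mm10 (GRCm38) and featureCounts of Subread 1.5.0-p3 for counting. The methods of the study give later versions of cutadapt and Subread, and which made the files is not stated. Strand and multimapping settings were not stated, so overlapping genes are uncertain. Replicates were checked by chi-square tests of counts, and every pair differed beyond sampling noise.

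Genes were kept by filterByExpr (minimum count 10), scaled by TMM and compared with voom from limma 3.58.1 (R 4.3.3, with edgeR 4.0.16), the tool named in the methods of the study, in 1 fit of 8 samples with group as the only term. Tests were two-sided, with Benjamini-Hochberg adjustment over all 10911 genes tested and a threshold of 0.05. edgeR's quasi-likelihood test, DESeq2 1.42.0, other scalings and filters, sample weights, a replicate block and leaving out libraries were alternatives. The fit was tested on simulated data. Tests of low factors without a filter were added after seeing the data. Poisson and binomial intervals and floors (3 counts) cover counting error only. Intervals of fold changes come from the limma-voom fit and include the spread between samples. Log2 ratios to Cebpa and of Gfi1 to Irf8 were not given because libraries held 0 counts.

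The 9 genes and all lists were chosen with earlier results of these data known. Named genes were all 9 factors, called genes of each list (at most 4 per direction, otherwise the 2 smallest p) and the gene most like each tested factor, of which the one for Spi1 is not reported here. Other genes, such as Gfi1b, Runx1, H2-Aa, Cd74 and Cd79a, were chosen after their values were seen.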

Additional observations from a re-analysis of the deposited data

Results flagged for a closer look

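In Vehicle, sample 1 was far above the other 3 samples for Cebpb, at 1.17 CPM (8 counts) against 0.155 to 0.307 CPM. Vehicle sample 3 stood apart for Klf4 in the same way, at 0.619 CPM (4 counts) against 0.146 to 0.154 CPM. Of 20 groups of 4 samples checked for such a value, 2 had one. Chance would give about 1 for normally distributed values, which counts this low are not. Cebpa and Cebpe in Vehicle, at 0 in every library, could not show such a value.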

How the results depend on the processing

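Cebpg, Spi1 and Irf8 were refitted under 18 alternatives. Cebpg (log2 fold change 0 to 0.13, adjusted p 0.398 to 0.985) and Spi1 (0.22 to 0.53, adjusted p 0.0714 to 0.299) stayed short of the threshold in all 18, and Irf8 passed in 7. The number of factors called became 1, Irf8, with edgeR, DESeq2, a minimum of 10 counts in every sample, sample quality weights, the replicate block and the removal of both libraries that stood apart, and it ranged from 0 to 1 when each sample was left out in turn.

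Over all genes, DESeq2 called 946 higher, and library size alone called 918 higher and 571 lower against 597 and 926 with TMM. An adjusted p under 0.01 left 435 genes (140 higher, 295 lower), and a minimum change of 1 log2 unit left 216 (150 higher, 66 lower). Leaving out 1 sample gave 688 to 1706 genes, 221 to 769 higher and 467 to 937 lower, fewest without Vehicle sample 3 and most without AG636 sample 3.

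Partners and regulators had 1 call with DESeq2, library size alone, the replicate block and without both libraries that stood apart, and 0 to 3 when 1 sample was left out (3 without AG636 sample 4). Other regulators had 7 calls with DESeq2, 7 with quality weights, 5 with the block, 7 without both libraries, 1 at an adjusted p under 0.01, 0 with a minimum change of 1 log2 unit, and 1 to 6 when 1 sample was left out. Receptors had 1 call with quality weights and 0 to 1 when 1 sample was left out. Granule genes had 1 with quality weights, 2 without both libraries and 0 to 1 when 1 sample was left out. Targets of PU.1 and Irf8 had 3 with DESeq2, 0 without a filter, 0 with 10 counts in every sample, 4 with quality weights, 4 with the block, 4 without both libraries, 0 at an adjusted p under 0.01 and 0 to 3 when 1 sample was left out. The cause of these changes was not tested. Mean levels of the factors and the Cebpg share moved by less than 1 SD under every alternative run.

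Sample numbers did not pair the groups: deviations of same-numbered samples correlated at r = -0.14, 0.01, 0.20 and 0.14, and only sample 3 matched its own number best. With the number as a block, Irf8 had a log2 fold change of 1.23 (limma-voom adjusted p = 0.0489) and 1446 genes were called. Depth limits the 6 low factors, since 3 counts in 1 library correspond to 0.434 to 0.479 CPM.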

Other observations

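Several immediate-early genes, among them AP-1 partners of C/EBP factors, were highest in AG636 sample 3. Jun stood at 166.3 CPM there and at 2.64 to 30.8 CPM in the other 3 AG636 samples, against 3.20 to 19.2 CPM in Vehicle. Fos stood at 60.0 CPM there, Egr1 at 36.9 CPM and Klf2 at 29.5 CPM, where the highest Vehicle samples had 8.15, 5.25 and 3.53 CPM. Jund was high in AG636 samples 3 and 4 alike, at 183.2 and 113.3 CPM, and Klf2 was at 16.6 CPM in AG636 sample 4. Junb, at 43.7 CPM in AG636 sample 3, was close to its Vehicle range of 31.3 to 41.0 CPM. Jun did not pass between the groups (log2 fold change 1.31, SE 1.37, limma-voom adjusted p = 0.559).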
